A study of Mus musculus with 2 samples.

Results

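The genes described here are 10 members of the NRF2 pathway and the antioxidant defence of mouse liver: Nfe2l2, Keap1, Nqo1, Srxn1, Txnrd1, Hmox1, Cbr3, Cat, Sod2 and Gpx4. They were taken by gene name from the non-control probes of an Agilent array, which gave 12 probes of 39429, for 10 genes of 31042 genes and unnamed transcripts. Liver RNA of wild-type (Pnpla8+/+) mice and of mice lacking Pnpla8 (Pnpla8-/-), both of strain C57BL/6N, was compared on 2 Cy3 arrays, 1 per genotype, each with RNA pooled in equal amounts from 5 animals. Pnpla8 encodes a calcium-independent phospholipase A2, and by its title the series concerns choline that liver draws from phosphatidylcholine for the methionine cycle. The age is 6 weeks in the sample labels and 8 weeks in the series design text, and nothing in the labels settles which holds. No other allele, agent or diet is named, and the labels do not say how the Pnpla8 allele was made or in which cells it is lost.

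NRF2, the protein of Nfe2l2, is a transcription factor that KEAP1 holds in the cytosol and passes to a cullin ubiquitin ligase for breakdown. When electrophiles or oxidants modify cysteines of KEAP1, NRF2 is spared, enters the nucleus, pairs with small MAF proteins and binds antioxidant response elements near genes for quinone reduction, thioredoxin and glutathione chemistry, heme breakdown and NADPH supply. Catalase, the mitochondrial superoxide dismutase SOD2 and the lipid hydroperoxidase GPX4 remove reactive oxygen species and lipid peroxides, and hepatocytes hold large amounts of all 3 enzymes.

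Each genotype had 1 array, so no difference has a replicate behind it and none was tested, and effects of genotype, of the pool and of the array cannot be told apart. Differences are therefore given by size, with at least 2-fold as the mark for a large one. All 12 probes were well above background on both arrays, none was saturated and none carried an outlier mark. The signal of an array was set relative to its 75th percentile over non-control spots, which was 1207 (wild type) and 1018 (knockout). The log2 ratio, knockout over wild type, had a median of 0.04 over 19951 measured genes, and the middle 95% ran from -0.91 to 0.77. The scanner software put the error of each member's signal at up to 10.1% of it, which makes 0.20 to 0.21 on a log2 ratio. Spots of 1 probe differed by a median SD of 0.04 (221 probes with 10 or more spots) and different probes of 1 gene by 0.10 (4286 genes), all of which is technical spread and not spread between animals. Pnpla8 itself read 144.5 in the wild-type pool and 4.45 in the knockout pool, where it was not well above background, and was at least 6.81-fold lower. The bound takes the lowest knockout signal well above background in place of the knockout reading. The labels do not say whether its single probe lies in the deleted part. All 8 hepatocyte markers, albumin (Alb) and transthyretin (Ttr) among them, were measured in both pools, and liver is the labelled tissue.

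The stretches below are the first 30 bases of the 60-base array probes behind the genes whose values differed most, and of both probes where a gene had a pair. They are given because each probe reads 1 short stretch of the transcript. No base is marked with capitals in them.
Cbr3, A_51_P481159: tctgcaaactcagtctgaacaattcgctgt
Srxn1, A_55_P2033120: gaagaatgtatgggaactctagtctctgca
Hmox1, A_51_P263965: atggttgtaagcatccatgttgactgacca
Hmox1, A_55_P2029687: atagagcgcaacaagcagaacccagtctat
Cat, A_51_P191611: aacagtgctaatgaagacaatgtcactcag
Cat, A_55_P2148873: tggtctggtatatatacaatacaacacaca
Sod2, A_51_P172573: ggctggtttatagtagtgtagagcattgca
The array files place probes in mouse build mm9. The Cbr3 probe, designed on NM_173047, lies on chromosome 16 from 93691120 to 93691179, and the Srxn1 probe (NM_029688) on chromosome 2 from 151937009 to 151937068. The Hmox1 probes (NM_010442) lie on chromosome 8, A_55_P2029687 from 77620797 to 77620856 and A_51_P263965 further along the transcript from 77624207 to 77624266. The Sod2 probe (NM_013671) is on chromosome 17 from 13208074 to 13208133. Of the Cat probes (NM_009804), A_55_P2148873 is on the minus strand of chromosome 2 from 103294487 to 103294546, and the files give no position for A_51_P191611. Exon and UTR annotation of that build was not used here.

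Among the 10 members, Cbr3 alone (1 gene) was lower in the knockout pool by at least 2-fold, and 0 were higher by that much. The same shares of all measured genes were 1.85% lower and 1.29% higher. The log2 ratios of the other 9 lay between -0.47 (Srxn1) and 0.31 (Sod2), inside the middle 95% of all genes. Below 0 were 8 of the 10, beside 43.1% of all genes, and 2 were above 0, beside 56.9%. The members were chosen with earlier results of these data known, so counts and ranks beside all genes only describe them. The median of the members was -0.14. Nfe2l2, Keap1, Gpx4 and the 5 NRF2 targets were below 0, although Keap1 was above it with median scaling, and Cat and Sod2 were above 0, Cat not without scaling. Of the 12 probes 6 had a ratio larger than the scanner error.

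**Figure D1:**
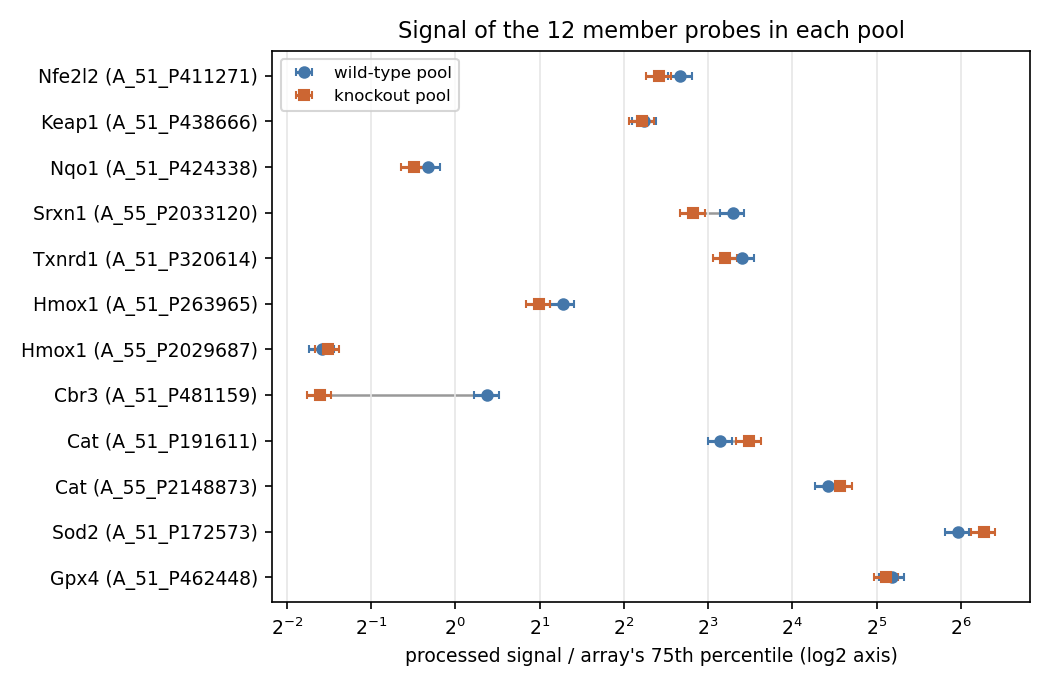
Processed signal divided by the array's 75th percentile (x, log2 axis) for each of the 12 member probes (y); blue circles are the wild-type pool, orange squares the knockout pool, and bars the scanner software's error of up to 10.1%. Cbr3 is the probe whose pools stand far apart, at 1.30 (wild type) and 0.328 (knockout); most of the other pairs overlap within their bars.

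The regulators came first in the pathway and differed little. The Nfe2l2 probe, on the minus strand of chromosome 2 from 75513771 to 75513830 (mm9), gave processed signals of 7686 (wild-type pool) and 5442 (knockout pool). Relative to the 75th percentile this was a log2 ratio of -0.25, or 1.19-fold lower, with a scanner error of 0.20, and 16.2% of measured genes had a ratio as low or lower. The transcript level says nothing of NRF2 protein, which is controlled largely by its breakdown. Keap1, the repressor, read 5724 and 4732, and its log2 ratio of -0.03 (0.03 with median scaling) was well inside its error of 0.20. The knockout pool was thus lower for the activator by slightly more than the scanner error, and differed for the repressor by less than that error.

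Of the 5 NRF2 targets, Cbr3 differed most by far. It encodes carbonyl reductase 3, an NADPH-dependent enzyme that reduces carbonyl groups of quinones and drugs. Its probe read 1569 (wild type) and 334 (knockout). The log2 ratio was -1.99, a 3.97-fold lower signal, which is 9.71 times its scanner error of 0.20. Only 16 of 19951 measured genes, Cbr3 among them, had a ratio as low or lower. The call held under all 13 settings tried, from -2.23 without scaling to -1.82 with a normexp background. It was measured by 1 probe, so no second probe of the gene stands beside it.

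Srxn1, sulfiredoxin, repairs over-oxidised peroxiredoxins. It read 11811 in the wild-type pool and 7214 in the knockout pool, a log2 ratio of -0.47, or 1.38-fold lower, with an error of 0.20. Of all measured genes 8.40% were as low or lower. It was the only member besides Cbr3 whose ratio was more than 2 times its scanner error (2.28 times), and its value ran from -0.71 to -0.41 over the settings. Txnrd1, the cytosolic selenoprotein that keeps thioredoxin reduced, read 12800 and 9399 on chromosome 10 from 82360230 to 82360289 (mm9). Its log2 ratio was -0.20, within its error of 0.20. Nqo1, the quinone reductase most often used as a readout of NRF2, read 964 and 727 on the minus strand of chromosome 8 from 109912440 to 109912499 (mm9). Its log2 ratio was -0.16, also within its error of 0.20. Both were below 0 under each of the 13 settings, and their highest values, with median scaling, were -0.14 for Txnrd1 and -0.10 for Nqo1.

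Hmox1, heme oxygenase 1, opens the heme ring and yields biliverdin, iron and carbon monoxide. In liver it is made by macrophages that take up red cells and, under stress, by hepatocytes. Its probes disagreed. A_51_P263965 read 2918 (wild type) and 2021 (knockout), a log2 ratio of -0.28 with an error of 0.20, while A_55_P2029687 read 404 and 357, a log2 ratio of 0.07 with an error of 0.21. The gene's value, their median, was -0.11, and the SD between the probes, 0.25, was larger than that. Kupffer cell markers were lower beside it: 12 of 12 were below 0, with a median of -0.90, and 5 were at least 2-fold lower (Marco -1.34, Cd5l -1.22, Adgre1 -1.16, Timd4 -1.07 and C1qa -1.05). Of all measured genes 43.1% were below 0 and 1.85% at least 2-fold lower. The summed scaled signal of the Kupffer cell list was 95.5 in the wild-type pool and 45.4 in the knockout pool. No marker of that list was at background, the Kupffer-specific Clec4f included (-0.85). In bulk tissue fewer cells of a type and less RNA per cell cannot be told apart, and the part of the macrophage markers in the Hmox1 value was not tested.

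**Figure D2:**
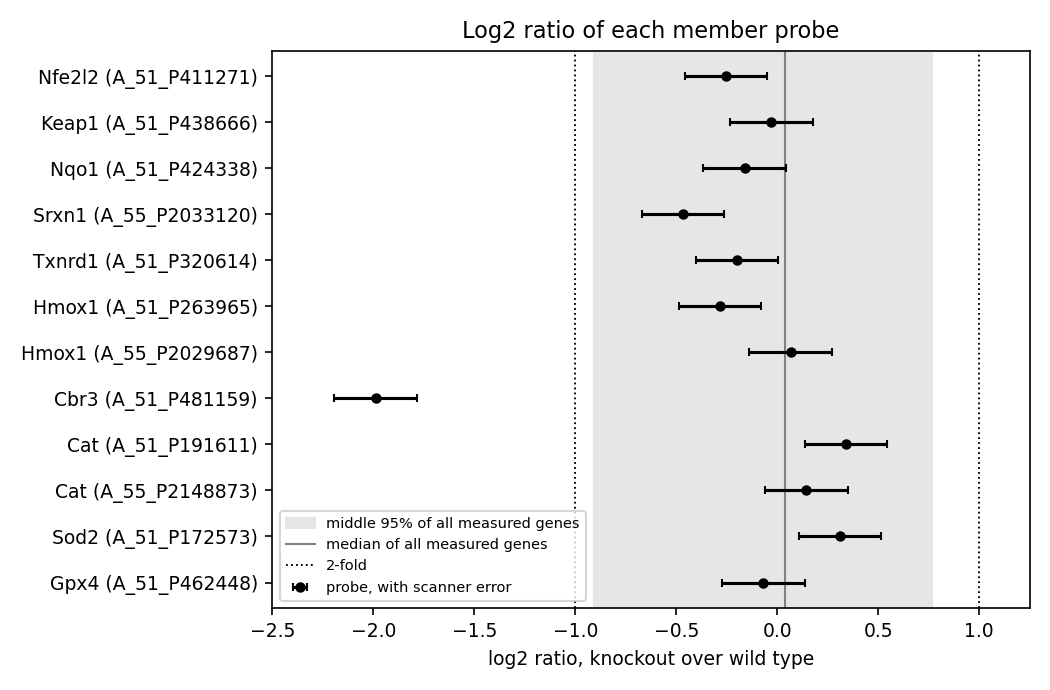
Log2 ratio of knockout over wild type (x) for each member probe (y), with the scanner software's error as bars; the grey band is the middle 95% of 19951 measured genes (-0.91 to 0.77), the grey line their median (0.04) and dotted lines mark 2-fold. Cbr3 at -1.99 lies outside the band, and the other 11 probes lie inside it.

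Of the 3 enzymes that remove superoxide and peroxides, Sod2 and Cat were above 0 and Gpx4 was below it. Sod2, which turns superoxide into hydrogen peroxide in the mitochondrial matrix, read 75186 (wild type) and 78708 (knockout). Relative to the 75th percentile this was a log2 ratio of 0.31, or 1.24-fold higher, with an error of 0.20, and 14.7% of genes were as high or higher. The ratio was 0.17 with loess or spike-in scaling, 0.12 with quantile scaling and 0.07 without scaling, each within that error. Cat, catalase, breaks down hydrogen peroxide in peroxisomes. Its probes read 10681 and 11414 (A_51_P191611, log2 ratio 0.34) and 25965 and 24209 (A_55_P2148873, log2 ratio 0.14), each with an error of 0.20. Both were thus above 0 after scaling, and the second was lower in the knockout before it. The gene's value was 0.24 with an SD between probes of 0.14, and 0.00 without scaling. Gpx4, the selenoprotein that reduces phospholipid hydroperoxides inside membranes, read 43917 and 35330 on chromosome 10 from 79518783 to 79518842 (mm9). Its log2 ratio of -0.07 was within its error of 0.20.

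The size of the small differences moved with the scaling: without it the median of all genes moved by -0.25 and with E1A spike-in controls by -0.14. Over the 13 settings Keap1 and Cat changed sign, each under 1 of them, and the other members kept theirs. Relative to the median of all genes, which a shift of the whole array leaves as it is, the median of the members stood at -0.18. Cat and Sod2 stood above that median by 0.20 and 0.27, and Srxn1 stood -0.51 from it.

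**Figure D3:**
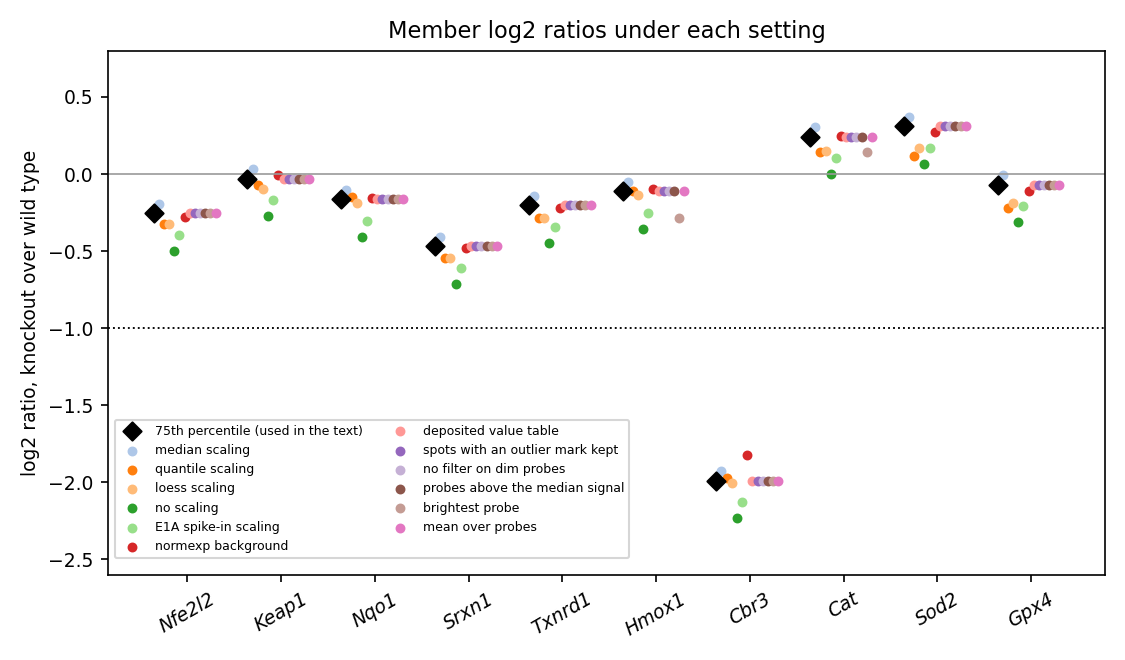
Log2 ratio of knockout over wild type (y) for the 10 members (x); black diamonds are the values used in the text and coloured dots the 12 other settings, with a dotted line at 2-fold lower. Cbr3 stays between -2.23 and -1.82, and the remaining members stay between -0.71 and 0.37.

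Promoter windows from RefSeq (build GRCm38.p6), from 250 bases before to 50 after a start site, were searched on both strands for the core of the antioxidant response element as TGACNNNGC or TGAGNNNGC. Both forms can overlap the AP-1 motif, the second where it begins TGAGTCA and the first where it begins with the reverse complement of that. Windows were held for 9 of the 10 members, 14 windows in all, because some genes have several start sites, and 3 genes had a match: Nfe2l2, Srxn1 and Txnrd1. Counted by window, 3 of the 14 held a match. Of 32817 windows of that length 27.8% held a match, 12.4% the first form and 17.7% the second. Srxn1 had 3 matches, at -158, -45 and 28 from its start site. Its 250 bases upstream, chr2:152105274-152105523 on the plus strand, are shown as the member after Cbr3 with the lowest ratio, with the upstream matches in capitals.
Srxn1: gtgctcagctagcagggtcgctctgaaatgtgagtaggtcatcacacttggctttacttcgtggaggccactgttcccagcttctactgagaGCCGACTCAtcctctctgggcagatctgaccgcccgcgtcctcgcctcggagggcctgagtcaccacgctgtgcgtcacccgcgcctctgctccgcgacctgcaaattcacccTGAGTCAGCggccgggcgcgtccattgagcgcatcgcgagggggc
The matches of the other members are shown with 10 bases on either side, from chr2:75704614-75704913 on the minus strand for Nfe2l2 (at -240) and chr10:82858956-82859255 on the plus strand for Txnrd1 (at -92, at 1 of its 3 start sites).
Nfe2l2: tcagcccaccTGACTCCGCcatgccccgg
Txnrd1: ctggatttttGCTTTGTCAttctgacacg
Cbr3, Nqo1, Keap1, Cat, Sod2 and Gpx4 had no match, which says only that these letters are not in these windows. A match is a description and not a binding site.

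The other genes of the pathway were read from lists chosen with earlier results of these data known. Among 35 other NRF2 targets 32 were measured, 22 below 0 and 10 above, with a median log2 ratio of -0.25 beside 0.04 for all genes. Of all measured genes 43.1% were below 0 and 56.9% above. At least 2-fold lower were 2 (G6pdx and Osgin1), beside 1.85% of all genes. At least 2-fold higher was 1 (Gsta2), beside 1.29%. G6pdx, which makes NADPH at the entry of the pentose phosphate pathway, read 3488 (wild type) and 859 (knockout), a log2 ratio of -1.78. Osgin1, an oxidative stress-induced growth inhibitor, read 26958 and 7190, a log2 ratio of -1.66. Their signals were 3.43-fold and 3.16-fold lower in the knockout pool, beside 3.97-fold for Cbr3. Like Cbr3, G6pdx and Osgin1 were each measured by 1 probe.

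Gsta2, a glutathione transferase, went the other way with 17258 (wild type) and 39041 (knockout), a log2 ratio of 1.42. Gsta2 was measured by 1 probe, and whether that probe also binds other alpha-class transferases was not tested. The aldehyde oxidase gene Aox1 (-0.84), the malic enzyme gene Me1 (-0.78), the phosphogluconate dehydrogenase gene Pgd (-0.75) and the aldo-keto reductase gene Akr1b7 (0.72) came next and were within 2-fold. Slc7a11, the cystine importer, was not well above background in either pool. The remaining 2 genes of the list, Gsta1 and Cyp2a5, were not analysed here.

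Among 15 other regulators of NRF2, 8 were below 0 and 7 above, beside 43.1% and 56.9% of all genes. Their median was -0.01, but 0.05 with median scaling. It was above 0 too with quantile scaling and among bright probes. No gene of the list was past 2-fold, beside 1.85% of all genes lower and 1.29% higher by that much. Palb2, which binds KEAP1, had -0.77, from 2 dim probes with -1.09 and -0.45. Its median signals were 51.4 (wild type) and 25.8 (knockout). The lowest knockout signal well above background was 17.9. The ubiquitin ligase receptor Btrc had -0.41. The cullin of the KEAP1 ligase, Cul3, and the DDB1-CUL4 receptor Dcaf11, which also directs NRF2 breakdown, both had 0.40.

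Among 33 other antioxidant enzymes and their partners 25 were above 0, beside 56.9% of all genes. None was past 2-fold, beside 1.85% of all genes lower and 1.29% higher by that much. The median of the list was 0.12, but 0.03 with quantile or loess scaling, -0.12 without scaling and below 0 with the spike-ins. The glutaredoxin Glrx had 0.55, the thioredoxin-binding protein gene Txnip 0.35, the methionine sulfoxide reductase Msrb3 -0.44 and nucleoredoxin, Nxn, -0.36. The peroxisome list, the compartment of catalase, had 10 of 13 genes above 0 and a median of 0.35, which stayed above 0 under every setting (lowest 0.11, without scaling). Pex19, which helps insert peroxisomal membrane proteins, had 0.43, and the oxidases Paox and Pipox had 0.43 and 0.42.

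The carbonyl and quinone reductases related to Cbr3 and Nqo1 were mixed, with 3 of 7 below 0, beside 43.1% of all genes. Their median, 0.10, was -0.14 without scaling and below 0 with quantile, loess and spike-in scaling too. Dcxr, a dicarbonyl reductase of the same dehydrogenase family as Cbr3, read 7746 (wild type) and 13689 (knockout). Its log2 ratio, from 1 probe, was 1.07, short of 2-fold with quantile, loess, spike-in or no scaling. Cbr1, the close relative of Cbr3, read 34776 and 18645, a log2 ratio of -0.65. Nqo2 had 0.49 and Cbr4 0.26. Cbr2 had -0.12, from 2 dim probes that disagreed (-0.75 and 0.51), with median signals of 69.7 (wild type) and 63.4 (knockout).

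Heme synthesis and breakdown genes, which share a substrate or product with Hmox1, had a median of 0.06. Above 0 were 9 of 14, beside 56.9% of all genes. That median was below 0 without scaling and with loess or spike-in scaling. Haptoglobin, Hp, had 0.34, the constitutive heme oxygenase Hmox2 0.30, the heme transporter Slc48a1 -0.29 and the biliverdin reductase Blvrb -0.29. Genes of lipid peroxidation and ferroptosis, the process GPX4 holds back, had 8 of 9 measured genes above 0 and a median of 0.16 (-0.08 without scaling), and 4 of the list were not well above background in both pools. Aifm2, which protects membranes through coenzyme Q, had 0.58, the ferritin receptor Ncoa4 0.49, Lpcat3 0.32 and Alox12 -0.39. Selenoprotein synthesis genes, needed for GPX4 and TXNRD1, had 6 of 6 above 0 with a median of 0.23 (-0.02 without scaling), led by Sephs2 and Sepsecs, both at 0.44, then Trnau1ap (0.25) and Eefsec (0.20). None of these 3 lists had a gene past 2-fold, beside 1.85% of all genes lower and 1.29% higher by that much.

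**Figure D4:**
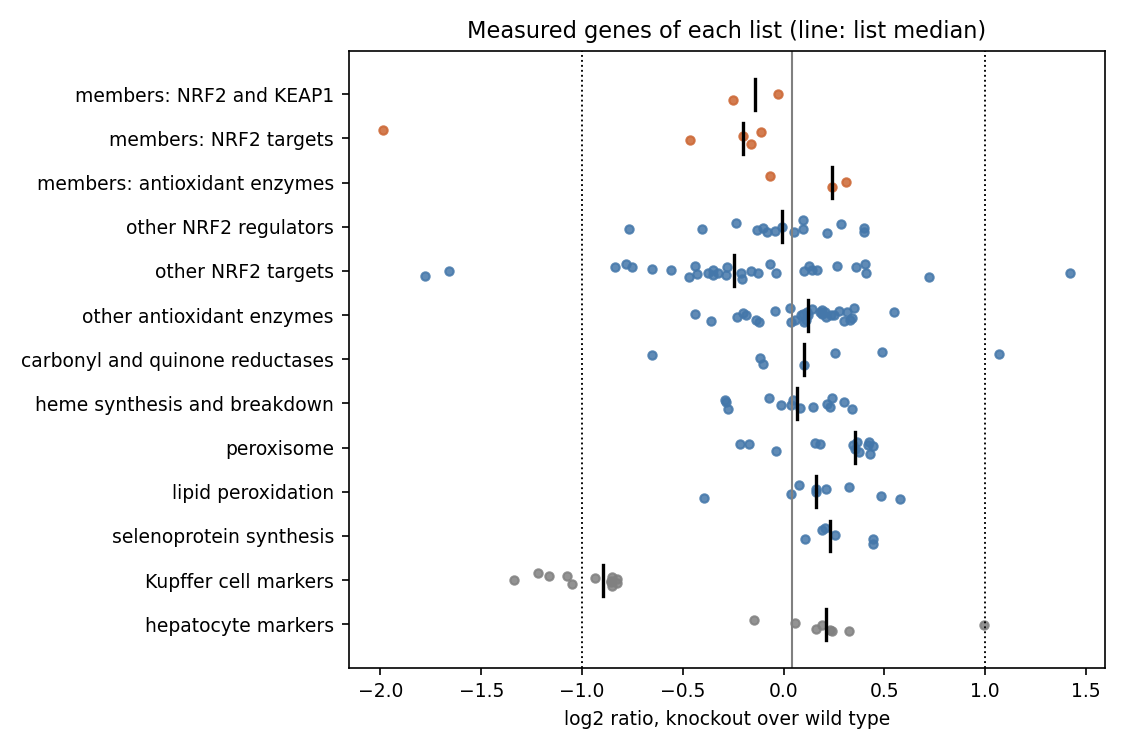
Log2 ratio of knockout over wild type (x) for each measured gene of each list (y); orange points are members, blue points other pathway genes and grey points cell markers, with the list median as a black line, the median of all genes (0.04) as a grey line and 2-fold as dotted lines. The other NRF2 targets centre at -0.25 and the other antioxidant enzymes at 0.12, and the Kupffer cell markers lie between -1.34 and -0.82.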

How the data were processed

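The authors read 1-colour Cy3 arrays of amplified RNA (200 ng per the labels' protocols). The submitters' processing notes name Agilent Feature Extraction, version 11.5.1.1. The deposited intensity is linear, background-subtracted and not scaled between arrays. The deposited value table holds the same intensity divided by 1207 (wild type) or 1019 (knockout). Its column medians were 0.0800 and 0.0763, and it is linear and not centred. No per-sample column was left unused.

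From the log2 signal, the 75th percentile over each array's 43020 non-control spots was taken off. Of these spots 70.1% (wild type) and 65.6% (knockout) were well above background. Spots with an outlier mark (119 and 170) were left out, and spots of 1 probe were averaged. The ratio of a gene is the median of its probes well above background on both arrays. Names came from the RefSeq table of GRCm38.p6: 28330 probes matched by accession, 2378 by name or synonym, and 8721 kept the file's name. Members and lists were chosen with earlier results of these data known. The named genes were all members, Pnpla8, and in each list the genes past 2-fold and up to 4 more with the largest absolute ratio; for markers of other cells only Kupffer cell genes are named with values. A gene that met this rule is not reported here. Python 3.11.15, pandas 2.3.3, numpy 2.4.6, statsmodels 0.14.6 (loess, span 0.3) and limma 3.58.1 in R 4.3.3 (normexp, offset 50) were used. The steps were tested on simulated data. The number of arrays limits the precision, and no p-value is given.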

Additional observations from a re-analysis of the deposited data

How the results depend on the processing

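Across 12 alternative settings, 92 of 120 member log2 ratios moved by less than 0.10, the spread between probes of a gene, 28 moved by more, and none past 2-fold changed sign. The median of the members was -0.38 without scaling and -0.28 with the 8 E1A spike-in probes. At 4-fold the count of members lower was 0. Of 127 measured pathway genes, 2 were at least 2-fold higher and 2 lower (1.57% each, beside 1.29% and 1.85% of all genes). The higher count was 1 with quantile, loess, no or spike-in scaling and 0 at 4-fold. The lower count was 5 without scaling, 7 at 1.5-fold and 0 at 4-fold. Of all genes measured, 258 were higher and 369 lower by at least 2-fold (41.1% higher). Without scaling these were 116 and 759 (13.3%), with the spike-ins 148 and 566 (20.7%), with normexp 135 and 128 (51.3%), with median scaling 313 and 305 (50.6%), with loess 201 and 399, without the filter on dim probes 994 and 1235, and among probes above the median signal 148 and 229. At 1.5-fold they were 882 and 1183, and at 4-fold 25 and 14. The cause of these changes was not tested, beyond the number of genes measured (31042 without the filter, 15489 among bright probes) and the fold itself. No paired analysis was possible because each genotype had 1 array, and for the same reason no replicate could be left out.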

Other observations

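The genes next to Cbr3 on chromosome 16 were read after the data were seen, in the order of the RefSeq table of GRCm38.p6, up to 3 measured genes on each side. On 1 side lay Cbr1 (log2 ratio -0.65), Setd4, a lysine methyltransferase (-0.67), and the unnamed clone 1810053B23Rik, which was 3.58-fold higher in the knockout pool. Both probes of that clone were well above background and above 0: A_55_P2002772 read 663 (wild type) and 1932 (knockout) (1.79), and A_55_P2002773 read 845 and 2640 (1.89). Under all 13 settings its log2 ratio lay between 1.59 and 1.90. On the other side lay Dop1b (0.54), the clone 2310043M15Rik (0.15) and Morc3 (0.06). Of 54 such neighbours of the other 9 members, 2 were past 2-fold, both lower: Mcm5 next to Hmox1 (-1.73) and Slc41a2 near Txnrd1 (-1.22). Of all measured genes 1.85% were at least 2-fold lower and 1.29% at least 2-fold higher.

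Beside the members, markers of the remaining liver cell types had the values below. Of all measured genes 43.1% were below 0 and 56.9% above. Of 7 lymphocyte markers 7 were below 0 (median -0.70, and -0.35 with normexp). Stellate cell markers were below 0 for 6 of 7 (median -0.40, and -0.28 with normexp). Of 6 endothelial markers 4 were below 0 (median -0.25) and of 6 cholangiocyte markers 4 were (median -0.11, above 0 with normexp). Of 4 measured erythroid markers 2 were below 0 (median 0.02), and of 8 hepatocyte markers 7 were above 0 (median 0.21). The erythroid median ran from -0.22 without scaling to 0.30 without the filter on dim probes, and was below 0 with quantile, loess, spike-in and normexp settings too. The hepatocyte median was 0.02 with quantile scaling, 0.03 with loess scaling and -0.03 without scaling.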
